A study of Mus musculus with 9 samples.

Results

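CTCF peaks in and around the vomeronasal receptor genes were taken from a CTCF ChIP-seq map of female mouse neural stem cells (NSCs). A peak was included if it overlapped the body, or the 10 kb on either side, of any gene on chromosomes 1 to 19 whose symbol starts with Vmn1r or Vmn2r in GENCODE M21 (GRCm38). This gave 586 peaks out of 225769 in the merged table, 280 at Vmn1r genes (V1R peaks) and 306 at Vmn2r genes (V2R peaks). The choice used position only, and no peak lay within reach of both classes. Each peak was assigned to the Vmn gene it overlaps, or else to the nearest one.

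The NSCs came from cortices of E14.5 C57Bl/6 embryos, and 9 libraries of 75-bp reads were made. MommeD43-GFP NSCs (3 libraries) are homozygous for MommeD43, a missense mutation, in an Smchd1 gene that also carries GFP. Smchd1 del/del NSCs (the null, 2 libraries) were derived in culture from floxed cells by a retrovirus carrying Cre and puromycin resistance. They have no GFP tag. Smchd1GFP NSCs (3 libraries) are homozygous for GFP-tagged, otherwise wild-type Smchd1 and served as the control, and 1 input library came from this genotype. Loss of SMCHD1, retroviral transduction with any drug selection, and the lack of GFP therefore cannot be told apart. The table gives 1 value per genotype, the authors' mean over libraries of log2 RPM (reads scaled to library size), and no value for the input. Without values for single libraries, no SD could be formed and no difference below was tested against the spread between them. A lower value can mean CTCF bound in fewer cells, less of it per cell or fewer background reads, which cannot be told apart. With no input value, the share of background in the reads of a peak could not be given. ChIP-seq of CTCF does not report RNA, and the identity of the cells could not be checked from it.

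V1R and V2R proteins are the pheromone receptors of the vomeronasal organ. V1Rs are expressed in apical sensory neurons with the G protein subunit Gnai2, and V2Rs, which have a large extracellular domain, in basal neurons with Gnao1. Each neuron expresses a single V1R or a very small set of V2Rs, and the genes, which are mostly silent outside this organ, lie in large tandem clusters with many pseudogenes. CTCF is a zinc finger protein that binds an asymmetric DNA motif and, with cohesin, marks insulators and domain borders. SMCHD1 is a non-canonical SMC protein that silences the inactive X chromosome and several clustered gene families.

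A core CTCF motif of 12 bases was found in 8 of the 586 peaks (1.37%), against 3.83% of all autosomal peaks. The sites of the 6 strongest of these peaks are shown because they are the sequences in the receptor clusters nearest to the known CTCF site. Capitals mark the core motif and lower case the 9 bases on each side, written 5′ to 3′ on the strand of the motif, from the GRCm38 reference.

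Vmn1r1: ctgctgtacCCACTAGGTGGCgatataagt
Vmn2r-ps94: aaggtccagCCAGTAGATGGCactcgaggg
Vmn1r181: gttggttggCCACCAGAGGGCactcttgat
Vmn2r-ps9: ctctctcccCCACTAGAGGGCgcagtggaa
Vmn1r-ps141: gttggttggCCACCAGAGGGCactcttgat
Vmn2r76: tttttgaggCCACTAGGGGGCagaagagta

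The sites lie at chr1:182140575-182140604 (minus strand), chr13:33762970-33762999 (minus), chr7:23968187-23968216 (plus), chr3:64587799-64587828 (minus) and chr17:20399285-20399314 (plus), all in gene flanks, and at chr7:86211541-86211570 (minus) inside the body of Vmn2r76. The sites near Vmn1r181 on chromosome 7 and near the pseudogene Vmn1r-ps141 on chromosome 17 were identical over all 30 bases shown. The other core-motif peaks lay in the flanks of Vmn1r212 and Vmn1r195 on chromosome 13. A relaxed motif, CCNNNAGNNGGC on either strand, which every core motif also matches, was present in 65 peaks (11.1%), against 24.8% of all autosomal peaks. Most peaks at the receptor genes therefore had neither form in their sequence. An absent match says only that these letters were not in the peak.

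CTCF peaks were sparse and weak across the receptor clusters. The bodies and flanks of the 561 Vmn genes cover 15.7 Mb and held 37.4 peaks per Mb, against 88.2 per Mb over all autosomes and 62.6 per Mb at olfactory receptor (Olfr) genes taken the same way. Of 326 Vmn1r genes 189 had a peak within reach, as did 145 of 235 Vmn2r genes. The other 227 genes had none. The gene with the most peaks was Vmn2r7, with 10 in its body and flanks.

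By place, 345 peaks lay in flanks, 182 in gene bodies and 59 within 1 kb of a Vmn transcription start. V2R genes are longer, with an extended intron and exon structure, and their bodies took 135 of the peaks assigned to V2Rs, whereas V1R bodies took 47. Counting every peak that overlaps a body, those at a start included, 76 peaks lay over Vmn1r bodies (45.3 per Mb of body) and 144 over Vmn2r bodies (29.4 per Mb). Promoters of other genes coincided with 42 of the peaks. The 2 peaks nearest to the 10 kb limit from within had -0.74 in MommeD43-GFP, -1.39 in Smchd1 del/del and -0.69 in Smchd1GFP NSCs (chr13:65933401-65934150, 9886 bp from the gene), and -1.30 in MommeD43-GFP, -1.15 in Smchd1 del/del and -0.74 in Smchd1GFP NSCs (chr5:109234501-109235100, 9793 bp). Just beyond it, peaks at 10063 and 10160 bp had 1.22 in MommeD43-GFP, 1.63 in Smchd1 del/del and 1.14 in Smchd1GFP NSCs, and -0.83 in MommeD43-GFP, -0.49 in Smchd1 del/del and -1.63 in Smchd1GFP NSCs. Values here are levels in log2 RPM.

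The median level of the receptor peaks, averaged over genotypes, was -1.05 log2 RPM, against -0.52 for all autosomal peaks. This placed the median receptor peak at percentile 26.2 of the autosomes. Of the 586 peaks, 416 (71.0%) fell in the lowest 4 deciles of level and 9 (1.54%) in the top decile. V1R and V2R peaks were alike in this respect, with median levels of -1.02 and -1.07. Values are not divided by length, and receptor peaks were shorter, with a median of 600 bp against 750 bp.

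The sequence under the peaks was rich in repeats. Repeat-masked bases made up a median of 47.3% of a receptor peak, 40.2% for V1R and 52.4% for V2R peaks, against 15.9% for all autosomal peaks and 28.1% at Olfr genes. Because the genes are near copies of each other, the share of 75-base stretches that occur once in GRCm38 was also counted. All such stretches were unique in 322 peaks (54.9%), compared with 80.4% of 4343 autosomal peaks taken at even steps. In 99 receptor peaks under 90% were unique (16.9%, against 4.44%), so reads there can be split among copies. GC content was similar, with medians of 48.3% and 47.8%.

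Library sizes decoded from the lowest values were 49.2 M reads in MommeD43-GFP, 49.98 M in Smchd1 del/del and 41.7 M in Smchd1GFP NSCs. At the median receptor peak this corresponded to 24.6 reads per library in MommeD43-GFP, 22.9 in Smchd1 del/del and 21.9 in Smchd1GFP NSCs. The counting error of a difference (1 SE, given after ± below) had a median of 0.25 for MommeD43-GFP minus Smchd1GFP, 0.28 for Smchd1 del/del minus Smchd1GFP and 0.27 between the mutants. The SD of the differences over receptor peaks was 0.52 for MommeD43-GFP minus Smchd1GFP, 0.58 for Smchd1 del/del minus Smchd1GFP and 0.51 between the mutants. Counting errors do not include the spread between libraries. Reads were fewer than 10 per library in some genotype at 49 peaks.

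The first comparison asked whether CTCF at the receptor genes differs with the MommeD43 mutation. The median difference was -0.085 (95% interval -0.13 to -0.036), against 0.0070 over the 217130 autosomal peaks. At least 2-fold higher in MommeD43-GFP were 18 receptor peaks (3.07%), with 2.06% of autosomal peaks past the same fold, and at least 2-fold lower were 13 (2.22%), with 0.712% of autosomal peaks. All of these were below the autosomal median level. Below that level the shares higher and lower were 3.88% and 2.80% among 464 receptor peaks, against 3.73% and 1.37% among autosomal peaks. The split depended on scaling, with 19 higher and 8 lower (3.2% and 1.4%, autosomal shares 2.2% and 0.64%) when columns were centred on their medians, 9 higher and 22 lower (1.5% and 3.8%, autosomal shares 1.3% and 1.2%) after quantile normalization and 6 higher and 23 lower (1.0% and 3.9%, autosomal shares 1.0% and 1.5%) with the trend on level removed. Centred within bins of GC content it was 14 higher and 17 lower (2.4% and 2.9%, autosomal shares 1.6% and 1.0%), and within bins of level and GC content 13 higher and 20 lower (2.2% and 3.4%, autosomal shares 1.4% and 1.1%). Intervals of medians are read from the ordered differences and treat neighbouring peaks as independent.

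The second comparison, Smchd1 del/del minus Smchd1GFP, had a median further below 0. It was -0.19 (95% interval -0.25 to -0.15), against -0.037 for all autosomal peaks, and 62.3% of receptor peaks were lower in Smchd1 del/del, compared with 53.5% of autosomal ones. At least 2-fold lower were 34 peaks (5.80%, autosomal share 1.82%), and at least 2-fold higher were 18 (3.07%, autosomal share 3.18%). Below the autosomal median level, the shares at least 2-fold lower and higher were 6.47% and 3.02% for receptor peaks, and 3.31% and 4.99% for autosomal peaks. At or above it they were 3.28% and 3.28% among 122 receptor peaks, and 0.323% and 1.37% among autosomal peaks. The split was 21 higher and 23 lower (3.6% and 3.9%, autosomal shares 3.8% and 1.4%) with centred columns, 13 higher and 26 lower (2.2% and 4.4%, autosomal shares 2.8% and 1.6%) after quantile normalization and 17 higher and 29 lower (2.9% and 4.9%, autosomal shares 3.4% and 1.6%) with the trend on level removed.

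Set directly against each other, MommeD43-GFP NSCs had a median CTCF signal at receptor peaks above that of Smchd1 del/del NSCs. The median of MommeD43-GFP minus Smchd1 del/del was 0.10 (95% interval 0.051 to 0.17), against 0.036 over autosomal peaks. At least 2-fold higher in MommeD43-GFP were 17 peaks (autosomal share 1.24%), and 11 were at least 2-fold lower (autosomal share 1.02%). The corresponding shares below the autosomal median level were 3.66% and 2.37% for receptor peaks, and 2.36% and 1.86% for autosomal peaks. With the trend on level removed the median was 0.023 and the split 9 higher and 20 lower (1.5% and 3.4%, autosomal shares 0.55% and 1.7%), and after quantile normalization they were 0.062 and 17 higher and 16 lower (2.9% and 2.7%, autosomal shares 1.1% and 1.7%). Centred within bins of level and GC content the split was 12 higher and 14 lower (2.0% and 2.4%, autosomal shares 0.83% and 1.4%). The comparisons share columns, so each is a description of the same 3 values per peak.

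**Figure D1:**
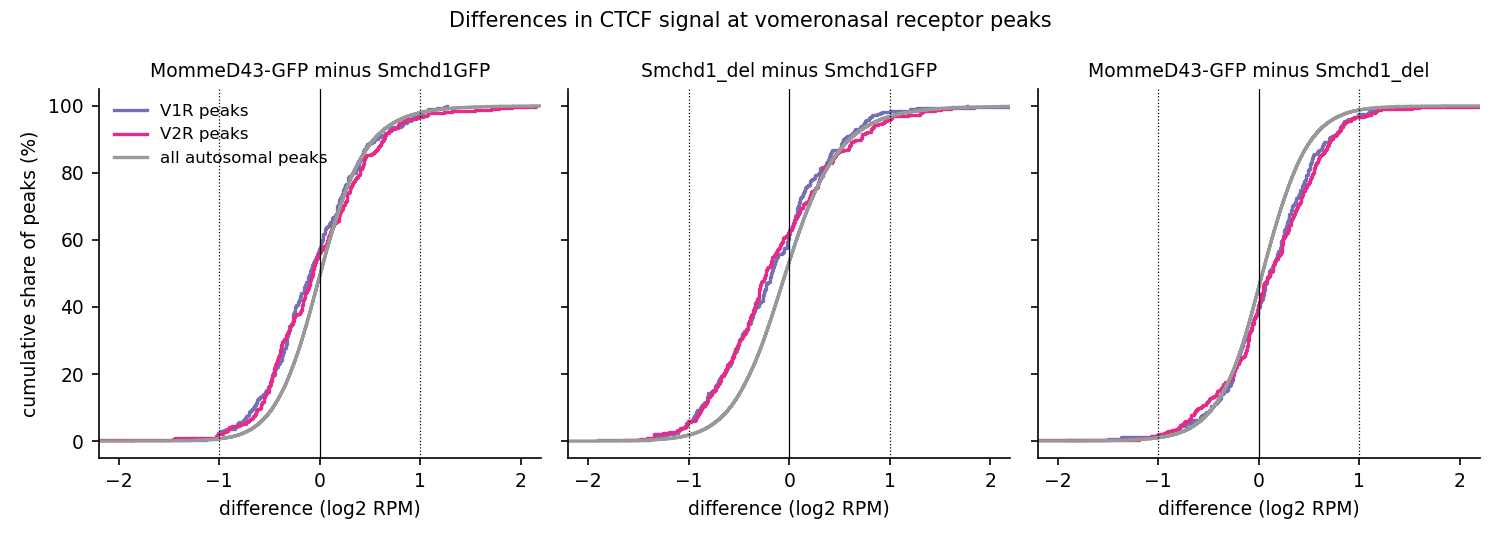
Cumulative share of peaks (%, y axis) by difference in CTCF signal (log2 RPM, x axis) for V1R peaks (280), V2R peaks (306) and all autosomal peaks in each of the 3 comparisons, with dotted lines at 2-fold. The V1R and V2R curves run close together and lie to the left of the autosomal curve below 0 for Smchd1 del/del minus Smchd1GFP (medians -0.18 and -0.23, autosomal -0.037).

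Both receptor classes contributed. For MommeD43-GFP minus Smchd1GFP the median was -0.10 (95% interval -0.18 to -0.021) at V1R and -0.067 (95% interval -0.14 to -0.0086) at V2R peaks. For Smchd1 del/del minus Smchd1GFP it was -0.18 (95% interval -0.25 to -0.068) at V1R and -0.23 (95% interval -0.30 to -0.14) at V2R peaks. Their intervals overlapped in each comparison, including MommeD43-GFP minus Smchd1 del/del (0.10 and 0.11). In the null, 5 V1R peaks (1.79%) and 13 V2R peaks (4.25%) were at least 2-fold higher, and 16 V1R peaks (5.71%) and 18 V2R peaks (5.88%) at least 2-fold lower, beside the autosomal shares of 3.18% and 1.82%.

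In the null, medians against control were below 0 at promoters, bodies and flanks. In Smchd1 del/del minus Smchd1GFP they were -0.13 at Vmn promoters, -0.23 in gene bodies and -0.19 in flanks, against an autosomal median of -0.037. The promoter interval, -0.46 to 0.062 over 59 peaks, includes 0 and the autosomal median. Peaks assigned to protein-coding genes (396) and to pseudogenes (188) had medians of -0.23 and -0.18. The 42 peaks at promoters of other genes stood at 0.043 (95% interval -0.19 to 0.15), and the 544 others at -0.23 (95% interval -0.28 to -0.16). These intervals overlap.

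Mappability, repeats and base composition moved with the result, and their part in it was not tested. In Smchd1 del/del minus Smchd1GFP the median was -0.36 (95% interval -0.52 to -0.24) at the 99 receptor peaks under 90% unique and -0.17 (95% interval -0.23 to -0.052) at the 322 peaks that were unique throughout. By repeat content it was -0.25 at the 282 peaks with 50% or more masked bases and -0.17 at the others, compared with -0.086 and -0.030 for autosomal peaks split in the same way. By GC content it was 0.00073 below 45%, -0.18 between 45% and 50% and -0.31 at 50% or more. In each of these GC classes the autosomal medians were higher, at 0.15, -0.029 and -0.14. Shares past 2-fold in MommeD43-GFP minus Smchd1GFP also differed with uniqueness. Under 90% unique, 9 peaks (9.09%) were higher and 6 (6.06%) lower. Between 90% and 100% these were 1 (0.61%) and 4 (2.42%) of 165 peaks. Among peaks unique throughout, 8 (2.48%) were higher and 3 (0.93%) lower, beside autosomal shares of 2.06% and 0.712%.

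The sign of the null median differed between bands of peak strength. At the 416 receptor peaks in the lowest 4 deciles of level, the median of Smchd1 del/del minus Smchd1GFP was -0.23 (95% interval -0.29 to -0.15), and at the 130 peaks in the next 3 deciles it was -0.26 (95% interval -0.38 to -0.18). At the 40 peaks in the top 3 deciles it was 0.24 (95% interval 0.055 to 0.37), with 29 of them higher in Smchd1 del/del. All autosomal peaks of the same 3 bands had medians of -0.024, -0.085 and -0.011. By these medians, receptor peaks of the top 3 deciles lay above control in the null and those of the weaker bands below it. The bands are unequal, and the upper cut falls where the decile medians change sign (-0.30 in decile 7, 0.10 in decile 8). Split instead at the autosomal median level, the 122 stronger receptor peaks had a median of -0.14 (95% interval -0.23 to 0.024).

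Against the control, MommeD43-GFP followed a flatter course over the same bands, with receptor medians of -0.071, -0.11 and 0.040. Between the mutants, the median of MommeD43-GFP minus Smchd1 del/del was 0.17 (95% interval 0.082 to 0.23) in the lowest band and -0.18 (95% interval -0.26 to -0.10) in the top band. Level is a mean over the same 3 columns. The split was seen over 40 strong peaks only and has no replicate behind it.

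**Figure D2:**
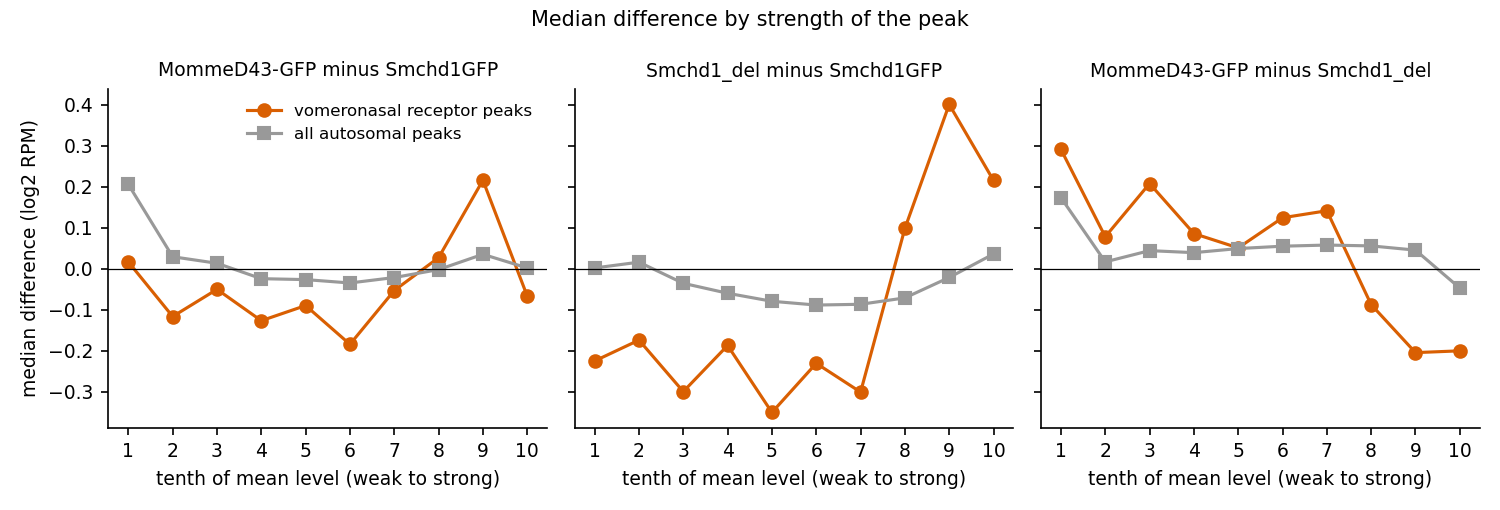
Median difference in CTCF signal (log2 RPM, y axis) by decile of mean level over autosomal peaks (x axis, weak to strong) for receptor peaks and all autosomal peaks in the 3 comparisons. For Smchd1 del/del minus Smchd1GFP the receptor medians lie between -0.35 and -0.17 in deciles 1 to 7 and reach 0.10, 0.40 and 0.22 in deciles 8, 9 and 10, which hold 18, 13 and 9 receptor peaks.

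The strongest peaks were then followed one by one. The tallest, of 11700 bp (chr1:182135251-182146950), lay 7754 bp from Vmn1r1, an isolated V1R gene on chromosome 1. It held a core motif, and its level was 4.45 in MommeD43-GFP, 4.41 in Smchd1 del/del and 4.47 in Smchd1GFP NSCs. Its differences from control were -0.022 ± 0.037 for MommeD43-GFP and -0.068 ± 0.042 for Smchd1 del/del. The 3 levels were nearly equal at this peak. A second tall peak closer to the gene, 3554 bp away (chr1:182148751-182151150), had 1.98 in MommeD43-GFP, 2.10 in Smchd1 del/del and 1.84 in Smchd1GFP NSCs, and was highest in the null.

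The next tallest peak was lower in both mutants. It spanned 6900 bp (chr7:12010051-12016950) in the flank of the pseudogene Vmn1r-ps60 in a large cluster on chromosome 7. Its level was 3.33 in MommeD43-GFP, 2.88 in Smchd1 del/del and 3.77 in Smchd1GFP NSCs, so that Smchd1 del/del was 1.85-fold lower than Smchd1GFP (-0.89 ± 0.064) and MommeD43-GFP 1.36-fold lower (-0.44 ± 0.051). This peak had neither a core nor a relaxed motif, a GC content of 56.9% and 57.5% masked bases. It was the largest departure from control in the null among the 10 tallest receptor peaks.

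Of the other 8 among the 10 tallest, 7 were higher in the null than in control. Near Vmn2r-ps94 on chromosome 13, the core-motif peak (chr13:33762301-33764400) had 2.46 in MommeD43-GFP, 2.56 in Smchd1 del/del and 2.26 in Smchd1GFP NSCs. The tallest peak inside a receptor gene lay in Vmn2r7 (chr3:64789951-64791900), a V2R of the family C type whose members are co-expressed with other V2Rs, with 2.13 in MommeD43-GFP, 2.54 in Smchd1 del/del and 2.19 in Smchd1GFP NSCs. Its difference in the null was 0.34 ± 0.085. The peak near Vmn1r181 (chr7:23967001-23969400), whose site is one of the identical pair, had 1.75 in MommeD43-GFP, 2.23 in Smchd1 del/del and 1.93 in Smchd1GFP NSCs, and its counterpart near Vmn1r-ps141 (chr17:20398351-20400300) had 0.89 in MommeD43-GFP, 1.04 in Smchd1 del/del and 0.98 in Smchd1GFP NSCs. With the same bases at the site, these peaks differed from control in the null by 0.29 ± 0.094 and 0.053 ± 0.14.

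A pair of the tall peaks lay at promoters of other genes. The peak near Vmn1r55 (chr7:5124901-5126550) is at the promoter of Rasl2-9, a Ras-like GTPase gene, and had 2.29 in MommeD43-GFP, 2.55 in Smchd1 del/del and 2.49 in Smchd1GFP NSCs. The peak 9487 bp from Vmn2r30 (chr7:7298851-7300950) is at the promoter of Clcn4, which encodes a chloride/proton exchanger, and had 2.05 in MommeD43-GFP, 2.28 in Smchd1 del/del and 2.47 in Smchd1GFP NSCs. Another tall peak, not at a promoter, lay in the flank of Vmn1r-ps92 at the edge of the chromosome 13 cluster (chr13:22050601-22051800), with 1.99 in MommeD43-GFP, 2.19 in Smchd1 del/del and 1.98 in Smchd1GFP NSCs. The differences of these 3 peaks in the null were 0.055 ± 0.081, -0.19 ± 0.085 and 0.22 ± 0.094.

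Of the 8 core-motif peaks, 7 were higher in Smchd1 del/del than in Smchd1GFP NSCs, the exception being the tallest at Vmn1r1. Their median was 0.32, while that of all 8324 autosomal core-motif peaks was 0.12. Of those autosomal peaks 33.4% were below control in the null, so most of them were also higher there. The most pronounced was the peak inside Vmn2r76 in a V2R cluster on chromosome 7 (chr7:86211151-86212800), unique throughout its length. It had 0.99 in MommeD43-GFP, 1.63 in Smchd1 del/del and 0.13 in Smchd1GFP NSCs, a 2.85-fold higher signal in the null (1.51 ± 0.15) and a 1.82-fold higher one in MommeD43-GFP (0.86 ± 0.15). The core-motif peaks near Vmn2r-ps9, Vmn1r212 and Vmn1r195 differed in the null by 0.34 ± 0.11, 0.37 ± 0.18 and 0.54 ± 0.26.

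**Figure D3:**
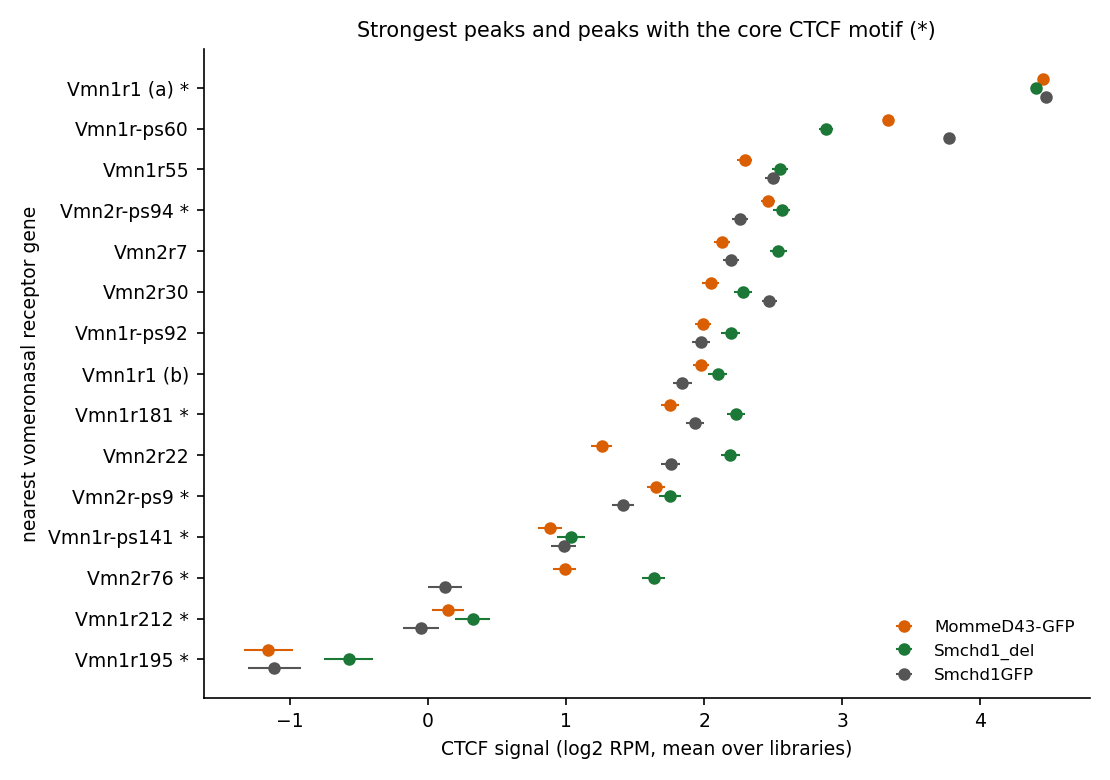
CTCF signal (log2 RPM, x axis) in MommeD43-GFP, Smchd1 del/del and Smchd1GFP NSCs at the 10 tallest receptor peaks and the 8 with a core motif (asterisk), by assigned gene (y axis; a and b are the taller and the lower peak at Vmn1r1). Points are the authors' means over libraries and bars 1 counting SE. The Smchd1 del/del point is to the right of the Smchd1GFP point at 7 of the 8 core-motif peaks and the leftmost at Vmn1r-ps60 (2.88 against 3.77 in Smchd1GFP). Of all autosomal core-motif peaks 33.4% were below Smchd1GFP in Smchd1 del/del.

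Among peaks at or above the median receptor level, those furthest above control in the null were led by a peak in the flank of Vmn1r10 on chromosome 6 (chr6:57106201-57106950). It had -0.46 in MommeD43-GFP, 0.36 in Smchd1 del/del and -1.48 in Smchd1GFP NSCs, 3.58-fold higher in the null (1.84 ± 0.25), and 85.4% of its 75-base stretches were unique. After Vmn2r76 came the peak in the flank of Vmn2r-ps21 on chromosome 5 (chr5:108865651-108867600), which is at the promoter of the predicted gene Gm10417 and had 1.55 in MommeD43-GFP, 2.19 in Smchd1 del/del and 0.89 in Smchd1GFP NSCs. Nearby, inside Vmn2r9 (chr5:108835651-108836850), the values were 0.42 in MommeD43-GFP, 1.16 in Smchd1 del/del and -0.027 in Smchd1GFP NSCs. At the start of Vmn1r-ps51 (chr7:10650151-10651050) they were -0.63 in MommeD43-GFP, -0.045 in Smchd1 del/del and -1.32 in Smchd1GFP NSCs.

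In the opposite direction at this level, the 5 peaks furthest below control in the null were at Vmn2r-ps121, Vmn1r36, Vmn1r46, Vmn2r-ps94 and Vmn1r-ps48. In the flank of Vmn2r-ps121 on chromosome 17 (chr17:19462501-19463400) the signal was -0.58 in MommeD43-GFP, -1.15 in Smchd1 del/del and 0.20 in Smchd1GFP NSCs, a difference of -1.35 ± 0.25. Near Vmn1r36 on chromosome 6 (chr6:66711601-66712200), also at the promoter of Gm6794, it was -0.66 in MommeD43-GFP, -1.65 in Smchd1 del/del and -0.31 in Smchd1GFP NSCs (-1.34 ± 0.29 in the null). Within Vmn1r46 (chr6:89986501-89987250) it was -0.67 in MommeD43-GFP, -1.37 in Smchd1 del/del and -0.16 in Smchd1GFP NSCs (-1.22 ± 0.27). A second peak at Vmn2r-ps94, within the pseudogene (chr13:33797101-33797850), differed by -1.12 ± 0.25, in the opposite direction to the tall core-motif peak in its flank. At the promoter of Vmn1r-ps48 (chr7:10299001-10299750) both mutants were below control, with -1.32 in MommeD43-GFP, -1.40 in Smchd1 del/del and -0.30 in Smchd1GFP NSCs.

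In MommeD43-GFP minus Smchd1GFP the lowest differences at this level were -1.04 ± 0.21 within Vmn2r-ps25 on chromosome 5 (chr5:151440001-151440900), -1.02 ± 0.24 at Vmn1r-ps48, -0.99 ± 0.20 near Vmn1r236, -0.95 ± 0.24 near Vmn1r84 and -0.94 ± 0.25 near Vmn2r-ps80. The Vmn2r-ps25 peak had -0.93 in MommeD43-GFP, -0.80 in Smchd1 del/del and 0.11 in Smchd1GFP NSCs, and the Vmn1r236 peak (chr17:21296101-21296550) had -0.83 in MommeD43-GFP, -0.79 in Smchd1 del/del and 0.16 in Smchd1GFP NSCs. At both, the mutants were close to each other and below control. The highest were 1.03 ± 0.24 in the flank of Vmn2r23, 1.02 ± 0.26 at Vmn1r10, 0.94 ± 0.23 near Vmn1r3, 0.86 ± 0.15 at Vmn2r76 and 0.86 ± 0.20 within Vmn2r26, a receptor known to detect peptide ligands of MHC class I molecules. The Vmn2r26 peak (chr6:124056751-124057950), which overlaps the promoter of Gm24843, had 0.19 in MommeD43-GFP, -0.19 in Smchd1 del/del and -0.67 in Smchd1GFP NSCs. The Vmn1r3 peak lies where 17.8% of the 75-base stretches were unique, so its reads may come from other copies.

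Between the mutants, adjoining V2R genes on chromosome 7 gave the largest excess in MommeD43-GFP at this level. Inside Vmn2r54 (chr7:12618901-12619650) the signal was -0.35 in MommeD43-GFP, -1.56 in Smchd1 del/del and -0.88 in Smchd1GFP NSCs, and inside Vmn2r55 (chr7:12655351-12656250) it was -0.20 in MommeD43-GFP, -1.36 in Smchd1 del/del and -0.99 in Smchd1GFP NSCs. Of their 75-base stretches 87.3% and 89.6% were unique. MommeD43-GFP exceeded Smchd1 del/del by 1.21 ± 0.28 and 1.16 ± 0.26, and control lay between them. A peak in the neighbouring Vmn2r53 (chr7:12601201-12602100) had the reverse order, with -0.72 in MommeD43-GFP, -0.044 in Smchd1 del/del and -0.33 in Smchd1GFP NSCs. Differences of 0.99 ± 0.30, 0.99 ± 0.25 and 0.96 ± 0.29 followed near Vmn1r36, Vmn1r-ps146 and Vmn1r-ps125.

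The lowest values of MommeD43-GFP minus Smchd1 del/del at this level were -1.06 ± 0.26 near Vmn1r-ps3 (where 36.1% of the 75-base stretches were unique), -0.93 ± 0.10 near Vmn2r22, -0.91 ± 0.18 near Vmn2r19, -0.86 ± 0.27 within Vmn2r-ps87 and -0.82 ± 0.19 near Vmn1r10. The Vmn2r22 peak (chr6:123656101-123658500), one of the 10 tallest, had 1.26 in MommeD43-GFP, 2.19 in Smchd1 del/del and 1.76 in Smchd1GFP NSCs, and the Vmn2r19 peak (chr6:123339901-123341100) had -0.28 in MommeD43-GFP, 0.62 in Smchd1 del/del and 0.11 in Smchd1GFP NSCs. Both belong to the V2R cluster on chromosome 6. At each the control was intermediate, with MommeD43-GFP below it and Smchd1 del/del above it.

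The differences past 4-fold, chosen for mention after their values were seen, were all at weak peaks. Signal in the flank of Vmn2r51 (chr7:10077151-10077900) was -3.54 in MommeD43-GFP, -1.15 in Smchd1 del/del and -0.56 in Smchd1GFP NSCs. At Vmn2r44 (chr7:8368801-8369250) it was -1.03 in MommeD43-GFP, -1.85 in Smchd1 del/del and -3.19 in Smchd1GFP NSCs. Near Vmn2r49 (chr7:9970951-9971400) it was -1.14 in MommeD43-GFP, -3.85 in Smchd1 del/del and -2.22 in Smchd1GFP NSCs. These 3 peaks lie in the same cluster on chromosome 7, and 81.5%, 63.8% and 46.8% of their 75-base stretches were unique. The other such peak, near Vmn1r-ps16 on chromosome 6 (chr6:58101451-58102200), had -1.71 in MommeD43-GFP, -0.20 in Smchd1 del/del and -2.40 in Smchd1GFP NSCs. Reads per library ranged from 3.46 to 43.4 at these 4 peaks.

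Chaining Vmn genes no more than 1 Mb apart gave 39 gene clusters. Of these 12 held at least 10 peaks, together 491 of the 586, another 24 held 1 to 9 peaks and 3 held none. Clusters on a chromosome are lettered in order of position. The median of Smchd1 del/del minus Smchd1GFP was below 0 in 11 of these 12 clusters and ranged between -0.35 and 0.0067. Of these 11, chromosome 6 cluster A (-0.021) and chromosome 17 cluster B (-0.0063) lay above the autosomal median of -0.037. The interval of the median excluded 0 only at chromosome 13, chromosome 6 cluster B and chromosome 7 cluster A. At chromosome 13 (-0.45 to -0.0045) and chromosome 6 cluster B (-0.41 to -0.012) it still included the autosomal median. These intervals are taken over peaks and do not cover the spread between libraries. The median of MommeD43-GFP minus Smchd1GFP was below 0 in 10 of the 12, with a range between -0.40 and 0.26. Every interval in this comparison included 0. MommeD43-GFP minus Smchd1 del/del had a median above 0 in all 12, between 0.014 and 0.31. The autosomal median was itself above 0, at 0.036. Chromosome 17 cluster B (0.014), chromosome 3 (0.016) and chromosome 6 cluster A (0.022) lay below it. The interval excluded 0 only at chromosome 13 and at clusters A and C of chromosome 7. At chromosome 13 (0.013 to 0.24) and chromosome 7 cluster C (0.020 to 0.55) it still included the autosomal median.

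**Figure D4:**
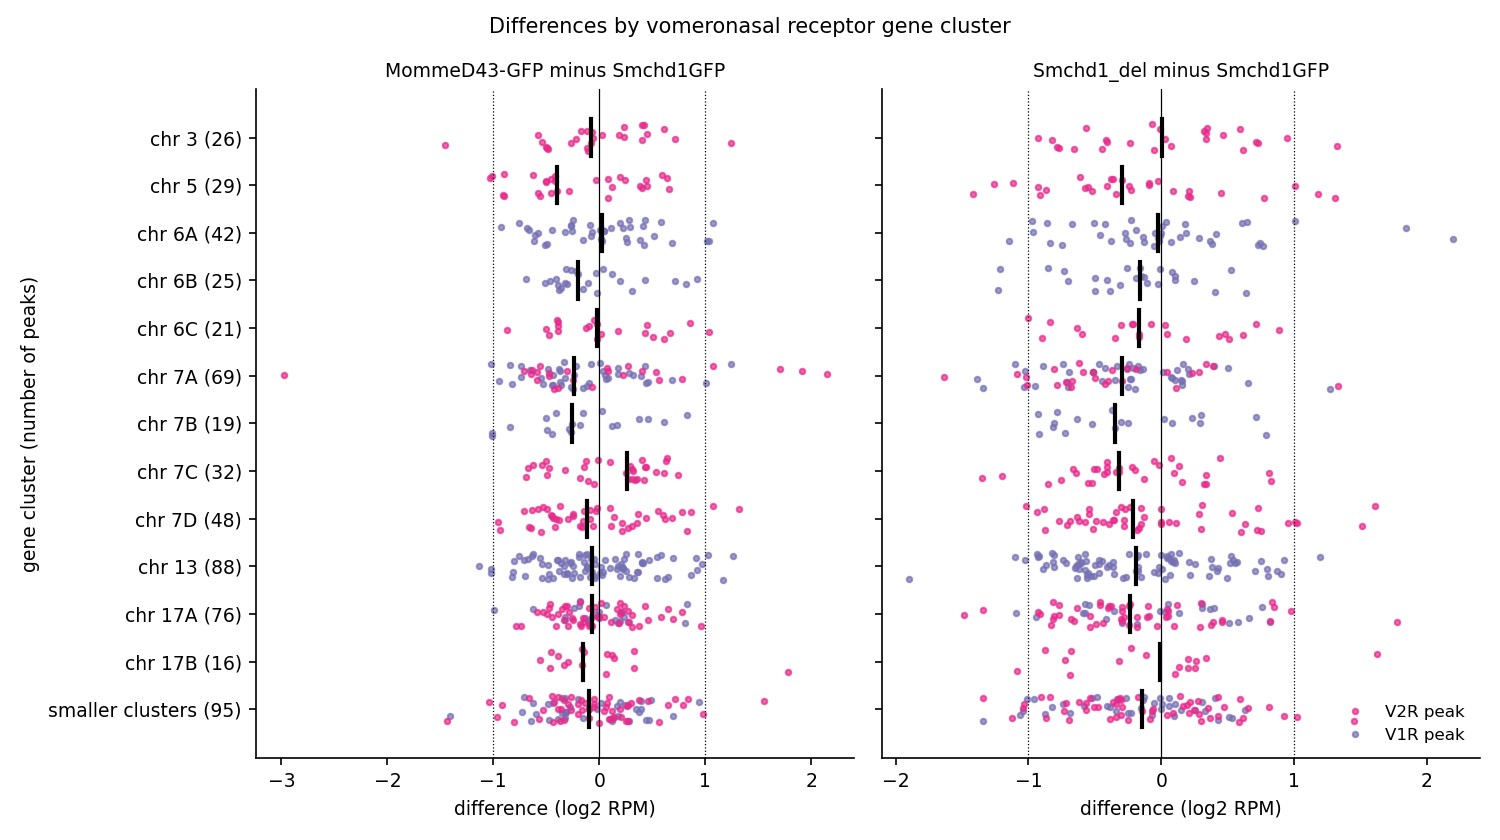
Difference in CTCF signal from Smchd1GFP (log2 RPM, x axis) at each V1R and V2R peak, by gene cluster (y axis, with the number of peaks), for MommeD43-GFP and Smchd1 del/del NSCs; black bars are medians and dotted lines mark 2-fold. Peaks spread to both sides of 0 in every cluster, and the medians depart most from 0 in MommeD43-GFP at chromosome 5 (-0.40) and chromosome 7 cluster C (0.26). The intervals of both these medians include 0.

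V1R genes alone make up 4 of these clusters. The cluster on chromosome 13 (22.1 to 23.3 Mb) had the most peaks, 88 for 70 genes, and medians of -0.071 in MommeD43-GFP and -0.19 in the null relative to control. Among its peaks at or above the median receptor level, the furthest below and above control in the null were in the flanks of Vmn1r197 (-1.03 ± 0.26) and Vmn1r-ps92 (0.80 ± 0.21). Chromosome 6 cluster A (56.9 to 58.5 Mb) stood at 0.022 in MommeD43-GFP and -0.021 in the null over 42 peaks, with Vmn1r10 the highest and Vmn1r28 the lowest (-0.98 ± 0.27) in the null among peaks at or above the median receptor level. Cluster B of the same chromosome (89.7 to 90.3 Mb) stood at -0.20 in MommeD43-GFP and -0.16 in the null over 25 peaks.

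The V1R cluster B of chromosome 7 (20.1 to 24.1 Mb) held few CTCF peaks. It holds 78 V1R genes, the most of any cluster, but had 19 peaks at them and 14.1 peaks per Mb over its whole span, against 88.2 for the autosomes. Its medians were -0.26 in MommeD43-GFP and -0.35 in the null, the lowest null median of the 12. The intervals of these medians, -0.49 to 0.17 in MommeD43-GFP and -0.78 to 0.23 in the null, both include 0. Among the peaks of this cluster at or above the median receptor level, the flank of Vmn1r176 was lowest in both mutants (-0.50 ± 0.23 in MommeD43-GFP and -0.78 ± 0.28 in the null) and that of Vmn1r178 highest (0.83 ± 0.26 in MommeD43-GFP and 0.30 ± 0.30 in the null).

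V2R genes alone make up 6 clusters. On chromosome 3 (64.1 to 64.9 Mb), where the family C genes Vmn2r1 to Vmn2r7 lie, the null median was 0.0067 over 26 peaks, the highest of the 12. Its interval was -0.41 to 0.34. A promoter peak of Vmn2r7 (chr3:64842151-64844250), which also overlaps the promoter of Gm26939, was higher in both mutants, with 1.44 in MommeD43-GFP, 1.75 in Smchd1 del/del and 1.04 in Smchd1GFP NSCs, whereas a peak in Vmn2r1 (chr3:64084801-64085550) was higher in MommeD43-GFP only, with -0.51 in MommeD43-GFP, -1.35 in Smchd1 del/del and -1.12 in Smchd1GFP NSCs. On chromosome 5 (108.8 to 109.6 Mb) the medians were -0.40 in MommeD43-GFP, the lowest of the 12, and -0.30 in the null over 29 peaks. The intervals of these medians, -0.51 to 0.20 in MommeD43-GFP and -0.55 to 0.087 in the null, both include 0. The longest run of receptor peaks on 1 side of control in the null on that chromosome was picked after values were seen. It was 6 consecutive receptor peaks (chr5:108878551-109042950) below control in both mutants. Their differences were between -0.90 and -0.29 in MommeD43-GFP and between -1.26 and -0.089 in the null. A peak within that stretch but outside the set (chr5:109032451-109033200) was above control in both mutants. It had -0.83 in MommeD43-GFP, -0.49 in Smchd1 del/del and -1.63 in Smchd1GFP NSCs. Of the 35 receptor peaks on chromosome 5, 25 were below control in the null. The run begins directly beside the higher peaks of Vmn2r-ps21 and Vmn2r9 described above.

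The V2R cluster C of chromosome 7 (41.4 to 42.9 Mb) had medians on opposite sides of control in the 2 mutants. They were 0.26 (95% interval -0.14 to 0.35) in MommeD43-GFP and -0.32 (95% interval -0.48 to 0.077) in the null over 32 peaks, and MommeD43-GFP minus Smchd1 del/del was 0.31 (95% interval 0.020 to 0.55). Both intervals against control include 0. That between the mutants excludes 0 but includes the autosomal median of 0.036. The longest run of receptor peaks on the chromosome, also picked after values were seen, was 13 in a row below control in the null (chr7:41444101-42024000). Their median was -0.50, where 125 of 186 receptor peaks on chromosome 7 were below control. Runs count receptor peaks only, and any other peaks between them were left out. Inside Vmn2r59 (chr7:42034651-42035250) the values were -0.41 in MommeD43-GFP, -1.25 in Smchd1 del/del and -0.84 in Smchd1GFP NSCs. At the edge of the cluster, the peak near Vmn2r57 (chr7:41392801-41393700), which overlaps promoters of the non-receptor transcripts AI987944 and Gm17102, had -0.017 in MommeD43-GFP, 0.44 in Smchd1 del/del and -0.37 in Smchd1GFP NSCs.

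The other V2R clusters had intermediate values. Chromosome 7 cluster D (84.8 to 87.0 Mb, 48 peaks), which contains Vmn2r76, stood at -0.12 in MommeD43-GFP and -0.21 in the null. Chromosome 6 cluster C (123.3 to 124.2 Mb, 21 peaks), with Vmn2r19 to Vmn2r26, stood at -0.022 in MommeD43-GFP and -0.17 in the null. Chromosome 17 cluster B (22.5 to 23.5 Mb, 16 peaks) stood at -0.15 in MommeD43-GFP and -0.0063 in the null. It includes Vmn2r116, the receptor of the male tear pheromone ESP1, whose flank (chr17:23374651-23375250) had -0.90 in MommeD43-GFP, -1.16 in Smchd1 del/del and -0.44 in Smchd1GFP NSCs.

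Mixed clusters hold both classes. On chromosome 7, cluster A (7.2 to 13.2 Mb) has 46 V1R and 44 V2R genes and 69 peaks, with medians of -0.24 in MommeD43-GFP and -0.30 in the null. It holds the Vmn1r-ps60 peak, the Vmn2r53 to Vmn2r55 peaks and 3 of the 4 peaks past 4-fold. On chromosome 17, cluster A (17.7 to 21.3 Mb) has 24 V1R and 36 V2R genes and 76 peaks, with medians of -0.067 in MommeD43-GFP and -0.24 in the null. Among its peaks at or above the median receptor level, the one furthest above control in the null was in Vmn2r101 (chr17:19608601-19609200), with -0.63 in MommeD43-GFP, -0.56 in Smchd1 del/del and -1.41 in Smchd1GFP NSCs. The remaining 95 peaks in smaller clusters had medians of -0.092 in MommeD43-GFP and -0.14 in the null.

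Other chemosensory families were described in the same way, on lists chosen with earlier results of these data known. Olfactory receptor genes (1399 genes, 1535 peaks, 1 of them shared with the vomeronasal set) had medians of -0.021 in MommeD43-GFP and -0.12 in the null, and the shares past 2-fold in the null were 3.84% on the higher side and 3.52% on the lower side, beside 3.18% and 1.82% of autosomal peaks. Trace amine and taste receptor genes (64 peaks) had medians of -0.032 in MommeD43-GFP and -0.092 in the null. Both lists lay closer to the autosomal medians than the vomeronasal peaks did. Formyl peptide receptor genes, some of which are expressed in vomeronasal neurons, stood at -0.12 in MommeD43-GFP and -0.0032 in the null over 13 peaks, and the H2-M genes co-expressed with V2Rs at 0.018 in MommeD43-GFP and 0.12 in the null over 32 peaks.

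A list of genes for the signalling and identity of vomeronasal neurons had higher CTCF levels than the receptor genes. It held Trpc2, Gnao1, Gnai2, Gng8, Gng13, Plcb2, Ano1, Ano2, Itpr3, Omp, Tfap2e, Bcl11b, Meis2, Emx2, Lhx2, Ldb1 and Cnga4. Over these 17 genes there were 181 peaks, 66 of them at Ano2 and 22 at Meis2. Their medians were -0.0010 in MommeD43-GFP and -0.087 in the null. Past 2-fold in the null, 6 of them (3.31%) were higher and 0 lower, beside those same autosomal shares. Their median level was 0.038 log2 RPM, against -1.05 at the receptor genes and -0.52 over all autosomal peaks. Their median length was 1050 bp, against 600 bp at the receptor genes and 750 bp over all autosomal peaks. The highest peak level was 4.49 at Gnai2 and 3.47 at Gnao1, the G protein subunits of V1R and V2R neurons, and 2.87 at Trpc2, the cation channel of both. Among receptor peaks, Vmn1r1 and Vmn1r-ps60 had levels of 4.44 and 3.33.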

How the data were processed

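CTCF was immunoprecipitated with antibody D31H2 from female NSCs, and libraries were read as 75-bp single ends. Per the submitters' processing notes and the study's methods, adapters were removed by cutadapt 2.9 under Trim Galore 0.4.4, quality was inspected in FastQC 0.11.8, and Bowtie2 2.3.4.1 aligned the reads to GRCm38, followed by SAMtools 1.7. Peaks were called by the authors in SeqMonk over each replicate set and merged; duplicate removal is not given in the sources used here. The deposited values are log2 RPM over each merged peak, averaged by the authors over the libraries of a genotype and not divided by length. No other column of values was present and none of the authors' comparisons was used.

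Peaks were overlapped with GENCODE M21 genes. Differences between columns, medians with 95% distribution-free intervals and shares past 2-fold were computed with pandas 2.3.3 and numpy 2.4.6 under Python 3.11.15, with loess from statsmodels 0.14.6, intervals from scipy 1.17.1 and sequence searches in numba 0.67.0, and checked on simulated data. Reads per library were recovered from the lowest value, taken as 0 reads entered as 0.9, and give the counting errors, which cover counting only. Named peaks were, among those at or above the median receptor level, the 5 highest and 5 lowest in each comparison, the extremes of each class and large cluster, the 10 tallest and those with a core motif. Members and lists were chosen with earlier results of these data known. Alternatives covered scaling, GC content, level, pseudocount, flank, overlap, gene type, fold and sequence uniqueness. Peaks on X and Y (8639) were left out.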

Additional observations from a re-analysis of the deposited data

How the results depend on the processing

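The median differences and the shares of receptor peaks at least 2-fold higher and lower were recomputed under each alternative. Of these values 210 stayed within the interval of the value reported, 45 moved beyond it. The medians kept their sign under each of these alternatives, but the balance of peaks higher and lower past the fold did not. For MommeD43-GFP minus Smchd1GFP 18 were higher and 13 lower as reported, 6 and 23 with the trend on level removed, 9 and 22 after quantile normalization, 14 and 17 centred within bins of GC content and 13 and 20 within bins of level and GC content. For MommeD43-GFP minus Smchd1 del/del 17 were higher and 11 lower as reported, 9 and 20 with the trend removed and 12 and 14 within bins of level and GC content. The balance turned also past 1.5-fold in the first of these comparisons, and with a pseudocount of 0.1 RPM in Smchd1 del/del minus Smchd1GFP. Restriction to gene bodies, flanks of 50 kb, protein-coding genes only, peaks of 450 bp or longer and a stricter overlap moved none of the values. For Smchd1 del/del minus Smchd1GFP the median was -0.14 with columns centred on their medians, -0.15 centred within bins of GC content, -0.14 within bins of level and GC content, and -0.14 at peaks at or above the autosomal median level. With centred columns 3.92% of peaks were at least 2-fold lower, and 3.28% of those at or above the median level.

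Quantile normalization gave 1.54% higher for MommeD43-GFP minus Smchd1GFP. With the trend on level removed, 1.02% were higher and 3.92% lower in that comparison, and MommeD43-GFP minus Smchd1 del/del had a median of 0.023, with 1.54% higher and 3.41% lower. With peaks at least 90% unique, 1.64% were higher in MommeD43-GFP minus Smchd1 del/del. Of peaks at or above the median level, 0% were 2-fold higher and 0% lower in MommeD43-GFP minus Smchd1GFP, and 0% and 0% in MommeD43-GFP minus Smchd1 del/del, whose median was 0.0075. The cause of these movements was not tested.

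A pseudocount of 0.1 RPM gave 0.853% higher and 0.512% lower for MommeD43-GFP minus Smchd1GFP, 1.71% and 1.54% for Smchd1 del/del minus Smchd1GFP, and 0.853% and 0.683% for MommeD43-GFP minus Smchd1 del/del. A pseudocount of 1 RPM gave medians of -0.032, -0.067 and 0.041 in the same order of comparisons, with 0% past 2-fold in each direction in all 3. Past 1.5-fold were 10.9% higher and 11.8% lower for MommeD43-GFP minus Smchd1GFP, 11.1% and 23.2% for Smchd1 del/del minus Smchd1GFP, and 15.4% and 8.19% for MommeD43-GFP minus Smchd1 del/del. Past 4-fold were 0.171% and 0.171%, 0.171% and 0%, and 0.171% and 0.171%, in that order. No autosomal shares are given at these pseudocounts and folds, so the receptor shares cannot be set against a background.

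Leaving out each of the 12 large clusters in turn, chosen after seeing the data, kept the median between -0.093 and -0.073 for MommeD43-GFP minus Smchd1GFP, between -0.23 and -0.18 for Smchd1 del/del minus Smchd1GFP, and between 0.10 and 0.11 between the mutants. Leaving out peaks at promoters of other genes, also chosen after seeing the data, moved none of the values. No paired analysis was possible because each genotype has a single pooled column, and single libraries could not be left out for the same reason. Depth limits single peaks: of the 31 peaks at least 2-fold apart in MommeD43-GFP minus Smchd1GFP, 20 had fewer than 10 reads per library in 1 of the genotypes, as did 19 of 52 in Smchd1 del/del minus Smchd1GFP.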

Other observations

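A few small clusters, chosen after their values were seen, had null medians further from 0 than any large cluster. At 5 V2R genes on chromosome 14 (51.4 to 51.5 Mb, 5 peaks, median level -1.68 log2 RPM) the median was -0.14 for MommeD43-GFP minus Smchd1GFP, 0.62 for Smchd1 del/del minus Smchd1GFP and -0.79 for MommeD43-GFP minus Smchd1 del/del. The longest run on 1 side of control in the null on that chromosome was 3 consecutive receptor peaks, between 0.62 and 1.02 above control in the null. At 3 V2R genes on chromosome 5 (151.4 to 151.6 Mb, 6 peaks), which include Vmn2r-ps25, the medians were -0.39 in MommeD43-GFP and -0.79 in the null relative to control.

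At Vmn1r1, the 3 peaks over the gene and its start were below control in the null. These peaks, starting at 182157151, 182159551 and 182162551 on chromosome 1, had differences of -0.82 ± 0.22, -0.41 ± 0.21 and -0.13 ± 0.22 from control in Smchd1 del/del NSCs, and the flanking peak on the far side from the tall ones, starting at 182170051, had 0.53 ± 0.25. These are values of single peaks with no replicate behind them.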
